A study of Mus musculus with 8 samples.

Results

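The metallothionein and zinc response genes described here are Mt1, Mt2, Mt3, Mt4, Mtf1, Slc30a1 and Slc39a10. They were taken by gene symbol from a table of 24918 entries of log2 normalized expression, in which all 7 were found, each as 1 entry. The rule names them by symbol and sets no threshold on their values. RNA came from whole corneas of male mice aged 3 months on a C57BL/6J/FVB background. The corneaGRKO mice carried a loxP-flanked glucocorticoid receptor gene on both chromosomes together with Cre driven by the Pax6 P0 promoter (GRloxP/loxP-PAX6Cre/+), which deletes the receptor in the corneal epithelium. The GRflox littermates carried the same loxP alleles without Cre (GRloxP/loxP-PAX6+/+). There were 4 libraries of either genotype, labelled as replicates 1, 3, 4 and 5, and a library pooled 4 to 6 corneas. Because only corneaGRKO mice carry Cre, effects of Cre and of receptor loss cannot be told apart. As background, the Pax6 P0 promoter acts in the surface ectoderm, which also gives rise to lens and conjunctiva, so loss of the receptor need not be limited to the cornea.

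Metallothioneins are very small proteins, rich in cysteine, that bind zinc and copper ions through clusters of sulphur atoms and buffer the free metal of a cell. When zinc rises, the zinc-finger factor MTF-1, the product of Mtf1, binds short metal response elements and switches on Mt1, Mt2 and the zinc exporter gene Slc30a1, while Slc39a10, a zinc importer gene, is among the genes it holds down. Mt1 and Mt2 are also classic glucocorticoid-induced genes in mouse liver and other tissues, which is what makes them of interest in a cornea that lacks the receptor in its epithelium.

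The coding sequences of Mt1 and Mt2 are shown because the cysteine codons, in capitals, are what defines the family and because their likeness bears on how far reads can be assigned to either gene. Both come from the GENCODE annotation of GRCm38, where the transcript of Mt1 lies at chr8:94179082-94180327 and that of Mt2 at chr8:94172664-94173568, both on the plus strand, and both are printed 5′ to 3′ without the stop codon.
Mt1: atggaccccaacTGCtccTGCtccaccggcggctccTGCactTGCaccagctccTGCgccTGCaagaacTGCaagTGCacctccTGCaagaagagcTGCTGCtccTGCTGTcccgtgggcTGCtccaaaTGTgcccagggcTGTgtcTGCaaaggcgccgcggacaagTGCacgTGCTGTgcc
Mt2: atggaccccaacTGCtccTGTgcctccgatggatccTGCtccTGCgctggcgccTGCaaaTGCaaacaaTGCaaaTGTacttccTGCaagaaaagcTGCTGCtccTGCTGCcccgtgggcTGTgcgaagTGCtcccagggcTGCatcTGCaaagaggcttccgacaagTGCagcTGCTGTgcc
In each, 20 of 61 codons encode cysteine (32.8%). Mt3 and Mt4 also have 20 cysteine codons, among 68 and 62 codons. Mt1 and Mt2 have the same base at 145 of 183 coding positions (79.2%). The longest stretch shared exactly between any annotated transcripts of the pair was 20 bases, and the longest between any pair of the 4 metallothionein genes was 27 bases (Mt1 and Mt3), both shorter than the 75 nt reads.

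The sequences upstream of Mt1, Mt2 and Slc30a1 are shown because MTF-1 is known to act on these genes through metal response elements. Each is the 250 bases before a RefSeq transcript start on GRCm38.p6, plus strand, read 5′ to 3′. Capitals mark matches to the core of the metal response element, searched as TGCACNC or TGCGCNC on both strands. The windows lie at chr8:94178839-94179088 for Mt1, chr8:94172368-94172617 for Mt2 and chr1:191906531-191906780 for Slc30a1.
Mt1: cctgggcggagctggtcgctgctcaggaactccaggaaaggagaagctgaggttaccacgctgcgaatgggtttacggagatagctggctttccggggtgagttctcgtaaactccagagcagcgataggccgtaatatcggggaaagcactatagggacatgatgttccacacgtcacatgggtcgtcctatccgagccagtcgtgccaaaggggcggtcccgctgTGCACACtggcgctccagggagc
Mt2: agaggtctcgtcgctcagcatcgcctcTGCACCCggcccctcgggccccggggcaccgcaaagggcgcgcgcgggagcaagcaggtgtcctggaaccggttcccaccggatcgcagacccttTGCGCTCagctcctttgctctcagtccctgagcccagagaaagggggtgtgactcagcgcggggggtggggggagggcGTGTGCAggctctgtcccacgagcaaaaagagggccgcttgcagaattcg
Slc30a1: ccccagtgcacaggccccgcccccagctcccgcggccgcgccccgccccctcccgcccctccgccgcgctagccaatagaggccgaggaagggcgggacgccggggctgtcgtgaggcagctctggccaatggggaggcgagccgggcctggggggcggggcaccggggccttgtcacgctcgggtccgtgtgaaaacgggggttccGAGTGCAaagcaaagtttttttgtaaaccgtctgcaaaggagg
The Mt2 window held 3 matches, that of Mt1 held 1 and that of Slc30a1 held 1. At least 1 match was present in 21.4% of all 32851 RefSeq windows of this length, and at least 3 in 1.26%. Mt4 had 1 match, while Mt3, Mtf1 and both annotated starts of Slc39a10 had 0.

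A glucocorticoid response element, searched as GNACA followed after any 3 bases by TGTNC, matched 1 of these windows, that of Mt1, and 0.387% of all windows.
Mt1 match, 94 bases before the start: GGACATGATGTTC
An antioxidant response element, searched on both strands as TGACNNNGC, matched once each in the Mt2 and Slc30a1 windows and in 10.2% of all windows. GENCODE lists further starts 129 and 159 bases after the first for Mt1 and 196 bases after the first for Mt2. The Mt1 window ends at 94179088, while its later starts lie at 94179211 and 94179241. The Mt2 window ends at 94172617, before the first GENCODE start at 94172664. The sequence beyond the windows was not searched, so the match counts leave out the bases directly before those starts.

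With 13269 entries tested, 0 of the 5 tested members passed a limma adjusted p of 0.05, against 1.85% of all entries (1.33% higher and 0.52% lower in corneaGRKO). At an unadjusted p under 0.05 there was 1 of the 5 (Mt2, lower), against 16.5% of all entries (9.69% higher and 6.86% lower). Mt3 and Mt4 fell under the filter on weak genes, a mean log2 value of at least 5, and are described by their values. The 4 corneaGRKO libraries lay below the 4 GRflox libraries in Mt2 alone of the 5, while 10.5% of all entries had groups that did not overlap in either direction, 4.61% with corneaGRKO below GRflox and 5.89% above. Among the 5, 2 had lower and 3 had higher means in corneaGRKO, with a median difference of 0.02 on the log2 scale, beside -0.00867 over all entries.

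The libraries themselves differed in ways that touch these values. Nr3c1, the gene of the deleted receptor, fell in corneaGRKO corneas to values from 10.61 to 10.83, against 11.07 to 11.34 in GRflox corneas (difference -0.47, SE 0.064, limma adjusted p = 0.00767). Whole corneas of both groups carried the defining genes of corneal epithelium, stroma and endothelium, with a summed epithelial marker level (log2 of the sum of the linear values of 8 genes) of 20.94 to 21.40 in corneaGRKO and 21.22 to 21.46 in GRflox. The library corneaGRKO replicate 4 stood apart. Its summed epithelial level was the lowest of the 8 (20.94), and its summed level of 8 photoreceptor genes was the highest (10.26, against 8.21 to 8.84 in the other corneaGRKO libraries and 8.05 to 8.14 in GRflox). Not every epithelial marker was low there. Krt14 was highest in that library (14.73, against 13.98 to 14.25 in the other corneaGRKO libraries and 13.36 to 13.94 in GRflox). Between genotypes Krt14 stood at 0.48 (limma adjusted p = 0.191), and the other 7 epithelial markers stood below 0. The library corneaGRKO replicate 4 also had the highest summed level of 7 conjunctiva and goblet cell genes, at 16.58. The other corneaGRKO libraries had 15.83 to 15.95, and GRflox had 15.29 to 15.65. By limma, 3 of 6 tested conjunctiva and goblet cell markers, all keratins, and 4 of 7 macrophage markers passed as higher in corneaGRKO. In the conjunctiva and goblet cell list, Agr2 stood at 0.02 (limma adjusted p = 0.784), and Muc5ac fell under the filter on weak genes. Among pigment cell markers 1 of 4 passed as higher and among photoreceptor markers 0 of 4, against 1.33% of all entries. None of these lists had a marker at 0 in every library. The summed lens level over 6 genes was 9.78 to 11.62 in corneaGRKO, lowest in replicate 4, and 10.25 to 11.40 in GRflox. Of 6 stromal markers 2 passed as lower in corneaGRKO, against 0.52% of all entries. They were Kera at -0.29 (limma adjusted p = 0.0369) and Col5a1 at -0.33 (0.0127). The list was split, since 3 of the 6 stromal markers stood below 0 and 3 above, by up to 0.09. The summed stromal level was 17.81 to 18.04 in corneaGRKO and 17.86 to 18.01 in GRflox. In pooled whole tissue, fewer cells of a type and less RNA per cell cannot be told apart.

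Mt2, the more strongly expressed metallothionein gene, read 12.21, 12.18, 11.80 and 12.15 in corneaGRKO replicates 1, 3, 4 and 5, against 12.32, 12.27, 12.26 and 12.29 in the GRflox replicates with the same numbers. Every corneaGRKO library was below every GRflox library, and replicate 4 was far below the rest. The means were 12.08 ± 0.190 in corneaGRKO and 12.29 ± 0.0233 in GRflox (SD, n = 4 each). The difference of -0.20 on the log2 scale (SE 0.0788, 95% interval -0.38 to -0.03 before adjustment) did not pass over all genes (limma adjusted p = 0.229). Without corneaGRKO replicate 4 the difference was -0.11 (limma adjusted p = 0.216), and the remaining 3 corneaGRKO libraries, from 12.15 to 12.21, were still below all GRflox libraries. The part of the tissue make-up of that library in the result was not tested.

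Mt1, which encodes the other broadly expressed metallothionein, had values of 10.79, 10.76, 10.52 and 10.73 in corneaGRKO replicates 1, 3, 4 and 5 and of 10.83, 10.94, 10.78 and 10.77 in the matching GRflox replicates. The groups overlapped, since corneaGRKO replicate 1 lay above GRflox replicates 4 and 5, and the lowest value was again corneaGRKO replicate 4. The mean was 10.70 ± 0.121 in corneaGRKO and 10.83 ± 0.0764 in GRflox (SD, n = 4 each), a difference of -0.13 (SE 0.062, limma adjusted p = 0.328). It was -0.07 without corneaGRKO replicate 4 (limma adjusted p = 0.641).

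**Figure D1:**
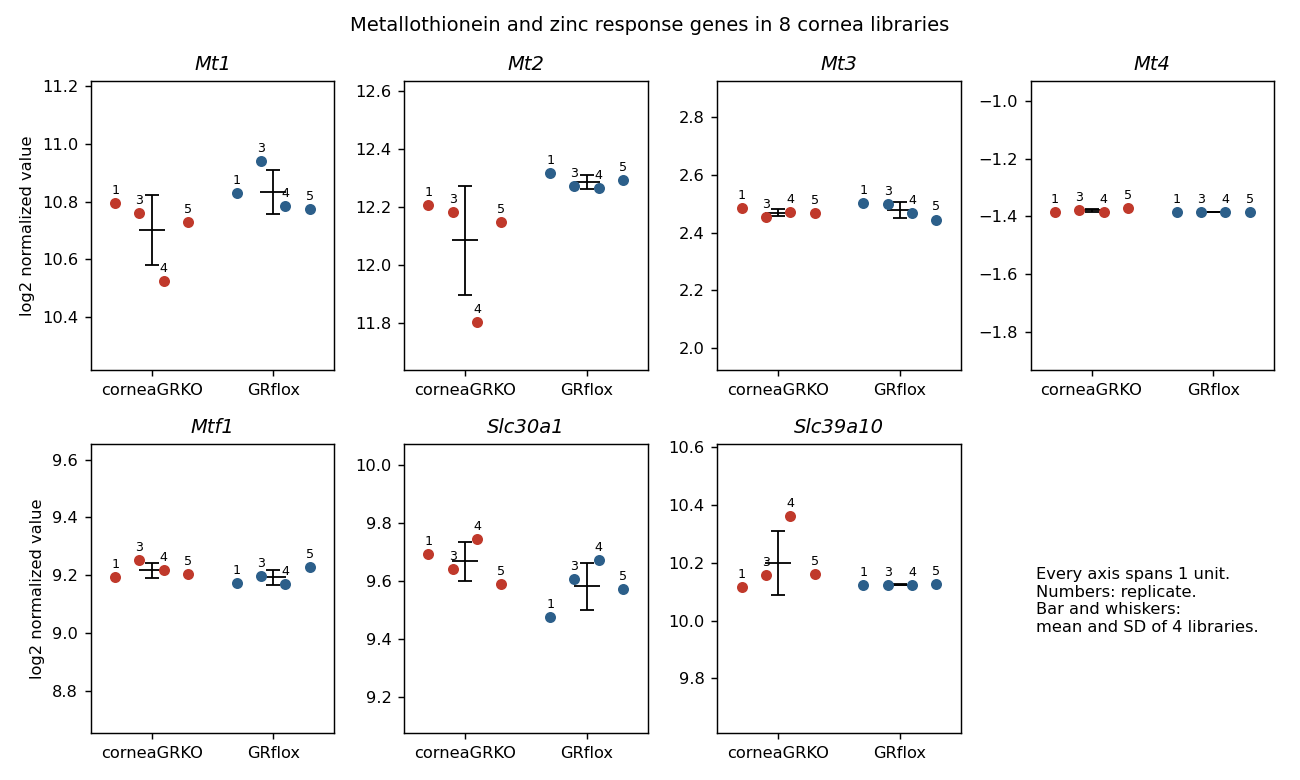
Log2 normalized value (vertical axes, each spanning 1 unit) of the 7 genes in corneaGRKO (left, red) and GRflox (right, blue) libraries; numbers are replicates and bars are the mean ± SD of 4 libraries. In the Mt2 panel all corneaGRKO points lie below all GRflox points, with replicate 4 at 11.80, while Mt3 and Mt4 hardly vary.

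Mt1 and Mt2 are neighbours on chromosome 8 and varied together. Over the 8 libraries their log2 values had a Pearson r of 0.892 (exact permutation p = 0.00935) and a Spearman rho of 0.786 (exact permutation p = 0.0279). Both p-values are unadjusted and pool the genotypes, whose means differ in the same direction for both genes. On deviations from the group means r was 0.827, given without a test. Leaving out corneaGRKO replicate 4 and GRflox replicate 3, the libraries farthest from the median of Mt1, r was 0.802 (n = 6, exact permutation p = 0.0472). Groups of 4 were too small for a separate r in either genotype. The ratio of the pair within a library, which does not depend on the scaling of that library, was measured as Mt2 minus Mt1. It was 1.41, 1.42, 1.28 and 1.42 in corneaGRKO replicates 1, 3, 4 and 5, against 1.49, 1.33, 1.48 and 1.52 in the matching GRflox replicates. The groups overlapped through GRflox replicate 3. Its mean was 1.38 ± 0.0702 in corneaGRKO and 1.45 ± 0.083 in GRflox (SD, n = 4 each), a difference of -0.07 (two-sided exact permutation p = 0.286, where the smallest possible p is 0.0286).

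Mt3, the metallothionein of brain and retina, was only weakly expressed. It had values of 2.49, 2.45, 2.47 and 2.47 in corneaGRKO replicates 1, 3, 4 and 5 and of 2.50, 2.50, 2.47 and 2.44 in the matching GRflox replicates. All 8 libraries fell within 0.0574 of each other, and corneaGRKO replicate 4, with the highest photoreceptor level, was in the middle of that range. Mt4, a metallothionein known from stratified squamous epithelium such as that of the tongue, was lower still. It stood at -1.3839, -1.3783, -1.3842 and -1.3704 in corneaGRKO replicates 1, 3, 4 and 5 and between -1.3843 and -1.3841 in all GRflox libraries. Weakly expressed genes vary little on the deposited scale, so such small spreads do not show that the level was equal. Without the filter on weak genes Mt3 had a difference of -0.00944 (limma adjusted p = 0.763).

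Mtf1, the zinc sensor that drives metallothionein transcription, was the steadiest of the tested members. Its values were 9.19, 9.25, 9.22 and 9.20 in corneaGRKO replicates 1, 3, 4 and 5, against 9.17, 9.20, 9.17 and 9.23 in the matching GRflox replicates. The groups overlapped, with the highest value in corneaGRKO replicate 3 and the lowest in GRflox replicate 4. The difference was 0.02 (SE 0.0353, 95% interval -0.05 to 0.10, limma adjusted p = 0.749), and 0.01 without corneaGRKO replicate 3 (limma adjusted p = 0.927). Its spread within groups, an SD of 0.0265, was smaller than that of all but 1.99% of the 2316 entries whose mean lay within 0.5 of its own.

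Slc30a1 encodes ZnT1, the zinc exporter of the plasma membrane. The gene read 9.69, 9.64, 9.75 and 9.59 in corneaGRKO replicates 1, 3, 4 and 5, against 9.47, 9.61, 9.67 and 9.57 in the matching GRflox replicates. The highest value was corneaGRKO replicate 4 and the lowest was GRflox replicate 1, and the groups overlapped. The means were 9.67 ± 0.0679 in corneaGRKO and 9.58 ± 0.0818 in GRflox (SD, n = 4 each), a difference of 0.09 (SE 0.0513, limma adjusted p = 0.428). It was 0.05 without GRflox replicate 1 (limma adjusted p = 0.747) and 0.03 without corneaGRKO replicates 1 and 4 (0.814). Slc39a10 encodes ZIP10, which carries zinc into the cell. It had values of 10.12, 10.16, 10.36 and 10.16 in corneaGRKO replicates 1, 3, 4 and 5, against 10.12, 10.12, 10.12 and 10.13 in the matching GRflox replicates. The GRflox libraries were almost identical, with an SD of 0.00195, a spread matched or undercut by only 1 other of the 13269 entries tested, while corneaGRKO replicate 4 stood above all others. The difference was 0.08 (SE 0.0518, limma adjusted p = 0.485), and 0.02 without corneaGRKO replicate 4 (limma adjusted p = 0.868).

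**Figure D2:**
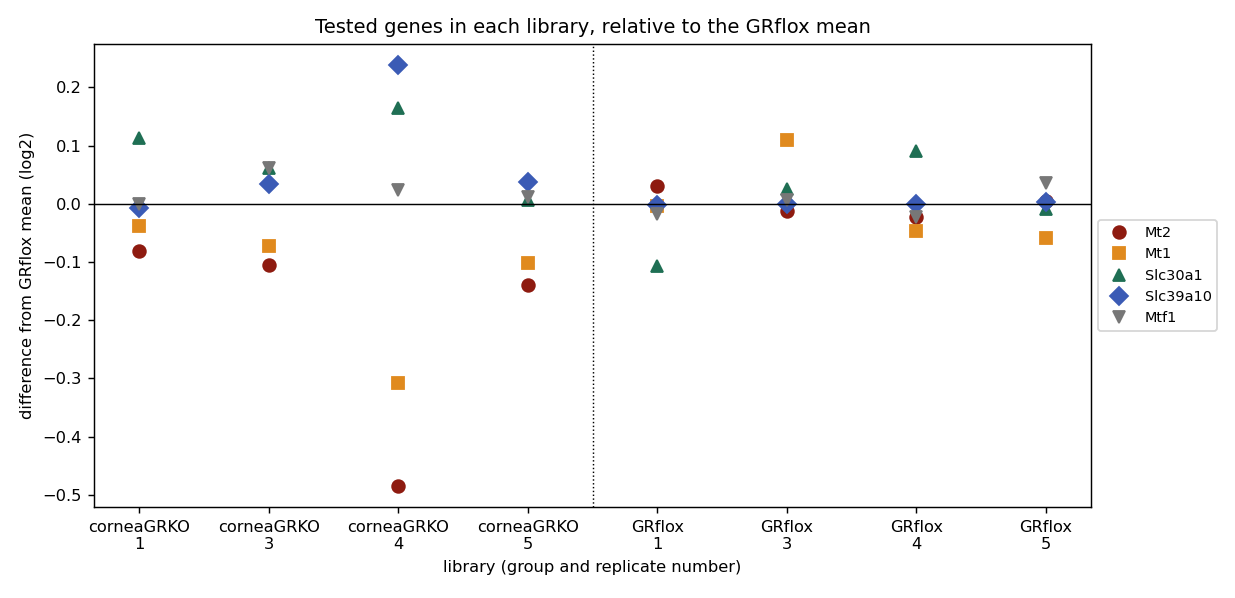
Difference of each library from the GRflox mean (log2, vertical axis) for the 5 tested genes, with corneaGRKO libraries left of the dotted line and GRflox libraries right of it. In corneaGRKO replicate 4 Mt2 and Mt1 were lowest (-0.49 and -0.31) and Slc39a10 and Slc30a1 highest (0.24 and 0.17).

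The spread of the members differed by gene and by group. Mt2 was more variable within groups than 90.6% of the 1080 entries of like mean, Mt1 than 79.4%, Slc39a10 than 59.7% and Slc30a1 than 53.5%. For Mt2 the SD was 0.190 in corneaGRKO and 0.0233 in GRflox, and the larger SD rested on corneaGRKO replicate 4, since the other 3 corneaGRKO libraries lay between 12.15 and 12.21. In all 4 corneaGRKO libraries Mt2 was below its GRflox mean, by 0.08 to 0.49. Mt1 was below its GRflox mean in all 4 corneaGRKO libraries and in 3 of the 4 GRflox libraries, that mean being raised by GRflox replicate 3. Per kilobase of annotated exon, the log2 level of Mt2 was 12.85 in corneaGRKO and 13.05 in GRflox, in the 99.4th percentile of 12626 tested entries with a known length. That of Mt1 was 10.38 in corneaGRKO and 10.51 in GRflox, in the 94.6th percentile. The annotated exon length of Mt1, 1246 bases, takes in the whole span of its gene, while that of Mt2 was 588 bases. The level of Mt1 per kilobase is therefore a low estimate, and its distance from Mt2 depends on the annotation. Slc39a10 (7.59 in corneaGRKO and 7.52 in GRflox) and Slc30a1 (7.28 in corneaGRKO and 7.19 in GRflox) followed near the middle, and Mtf1 (6.06 in corneaGRKO and 6.04 in GRflox) was lowest on this log2 level per kilobase. Each step in this order was larger than the SDs of the genes given above. Those SDs are between libraries and do not cover the annotated exon lengths, on which the order also rests.

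Genes that flank the cluster were read in the order of the RefSeq annotation, taking 3 protein-coding genes on each side. The cluster runs Mt4, Mt3, Mt2, Mt1, between Bbs2 and Nup93. Of the 6 flanking genes 5 were tested and 0 passed, with differences from -0.12 (Herpud1, a gene of the endoplasmic reticulum stress response, SE 0.0613, limma adjusted p = 0.374) to 0.02 (Nudt21, a factor of messenger RNA 3′ end processing). Bbs2, a gene of cilia, stood at -0.05 and Nup93, a nuclear pore gene, at -0.03. The difference of Mt2 was larger in size than that of each tested flanking gene, and no test of these differences against each other was made.

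**Figure D3:**
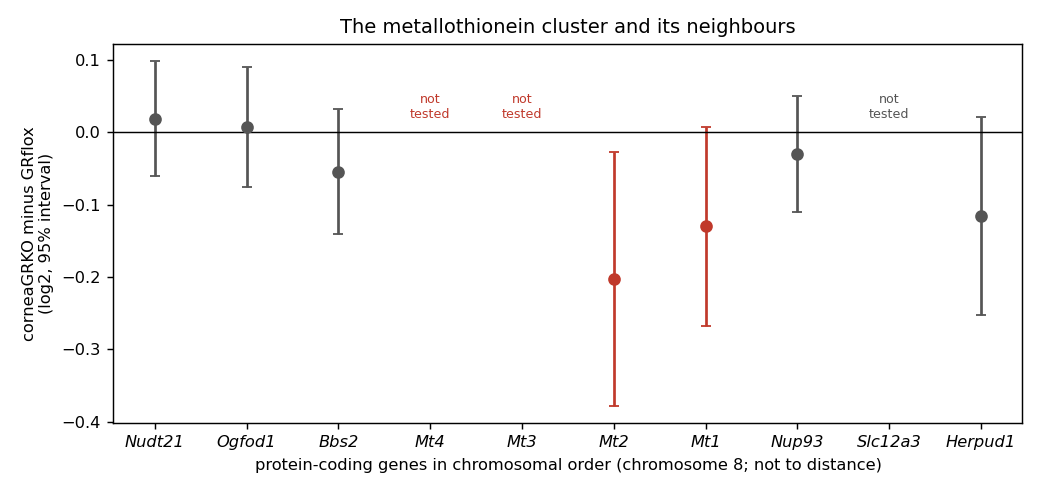
Difference of corneaGRKO minus GRflox (log2, with 95% intervals from limma) for the metallothionein genes (red) and 3 protein-coding genes on each side (grey), in chromosomal order and not to distance. The interval of Mt2 lies below 0 before adjustment, and that of Mt1 and of each tested neighbour crosses 0.

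The remaining zinc transporters did not pass either. Of 22 other genes of the Slc30 exporter and Slc39 importer families, 16 were tested and 0 passed a limma adjusted p of 0.05, against 1.85% of all entries. An unadjusted p under 0.05 was found for 2 of the 16, 1 in each direction, against 16.5% of all entries. The median difference of the 16 was -0.00763, beside -0.00867 over all entries. Slc39a6, which encodes the importer ZIP6, partner of ZIP10 in a complex of the plasma membrane, was the nearest to the threshold. It read 11.15, 11.18, 11.44 and 11.23 in corneaGRKO replicates 1, 3, 4 and 5, against 10.98, 11.05, 11.14 and 10.97 in the matching GRflox replicates. All corneaGRKO libraries were above all GRflox libraries, and the difference was 0.22 (SE 0.0653, limma adjusted p = 0.125). With the replicate number as a block it passed (limma adjusted p = 0.0248), as it did with library weights (0.0209). The numbers paired the libraries only in part, and the labels do not say whether they mark a batch.

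Slc39a3, another importer gene, had a difference of -0.11 (limma adjusted p = 0.259; 0.0456 with library weights) and Slc39a2 of -0.05 (0.465). Among exporters, Slc30a4, known for moving zinc into milk, had a difference of 0.11 (limma adjusted p = 0.357), and of 0.07 without corneaGRKO replicate 4 (0.691). Slc30a9 and Slc30a6 both stood at -0.02 (0.815 and 0.873) and changed sign under some of the alternatives. The unadjusted 95% intervals of the 16 tested transporters reached no further than 0.37 above or 0.21 below 0.

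**Figure D4:**
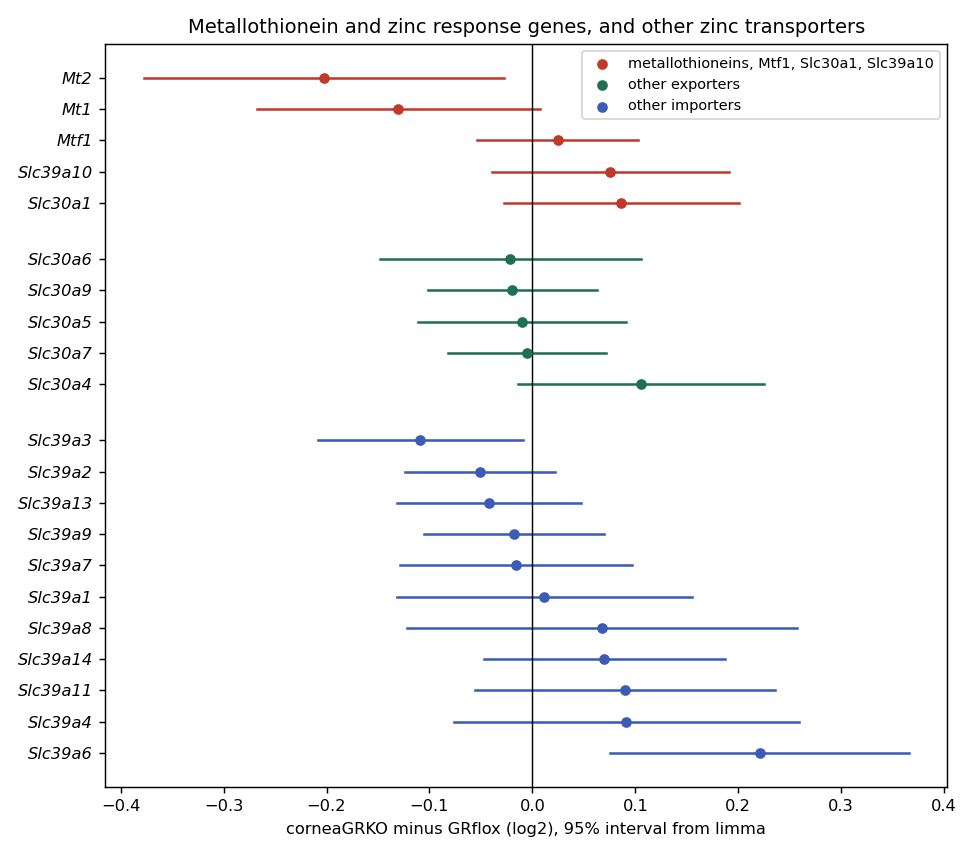
Difference of corneaGRKO minus GRflox (log2, horizontal axis, with unadjusted 95% intervals from limma) for the 5 tested metallothionein and zinc response genes (red), 5 other exporters (green) and 11 other importers (blue). The intervals of Mt2, Slc39a3 and Slc39a6 exclude 0 before adjustment.

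Further targets of MTF-1, named in work on mouse cells and tissues, were mostly short of the threshold. Of 5 tested, 1 passed, and 3 had an unadjusted p under 0.05 by limma, 2 of them higher and 1 lower. Over all entries 1.85% passed and 16.5% had an unadjusted p under 0.05 (9.69% higher and 6.86% lower). Ndrg1, a stress-responsive gene linked to cell differentiation, had values of 11.96, 11.86, 11.76 and 11.84 in corneaGRKO replicates 1, 3, 4 and 5, against 12.07, 12.08, 12.12 and 12.14 in the matching GRflox replicates. The groups did not overlap. Ndrg1 fell by 0.25 (SE 0.044, limma adjusted p = 0.0221). The call was lost without corneaGRKO replicate 3 (limma adjusted p = 0.0829), corneaGRKO replicate 5 (0.0632), GRflox replicate 1 (0.0558), GRflox replicate 3 (0.0553) or GRflox replicate 5 (0.0909), with the difference between -0.28 and -0.22 whichever single library was left out. Csrp1, a LIM-domain gene of smooth muscle and other contractile cells, singled out after its values were seen, had a difference of 0.45 (SE 0.106, limma adjusted p = 0.0642). It was highest in corneaGRKO replicate 4 (11.47), and without that library it passed at 0.34 (limma adjusted p = 0.0464).

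Copper and iron genes were read as neighbours of zinc in metal balance. Of 10 tested copper genes 0 passed and 0 had an unadjusted p under 0.05 by limma, with the copper pump gene Atp7a at 0.08 (limma adjusted p = 0.446), Cox17 at -0.06 (0.512) and Sco2 at -0.04 (0.581). Atp7a ran from 0.05 without corneaGRKO replicate 4 to 0.13 without corneaGRKO replicate 1, and Sco2 stood at -0.02 without corneaGRKO replicate 5 and at -0.03 without GRflox replicate 3. Of 13 tested iron genes 0 passed and 5 had an unadjusted p under 0.05, 4 of them higher. Beside the copper and iron counts, 1.85% of all entries passed and 16.5% had an unadjusted p under 0.05 (9.69% higher and 6.86% lower). Tfrc, which encodes the transferrin receptor through which cells take up iron, read 9.83, 9.59, 10.05 and 9.68 in corneaGRKO replicates 1, 3, 4 and 5, against 9.23, 9.45, 9.47 and 9.26 in the matching GRflox replicates. The groups did not overlap, and the difference of 0.43 (SE 0.0958) just missed the threshold (limma adjusted p = 0.0515). It passed with median centring (0.0445), robust moderation (0.0499), library weights (0.0239) and the replicate block (0.0232). Slc11a2, which encodes the iron importer DMT1, had a difference of -0.11 (limma adjusted p = 0.132), and Cp, which encodes the ferroxidase ceruloplasmin, of 0.30 (0.137, but 0.043 without corneaGRKO replicate 1).

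Metallothioneins also answer to oxidative and heat stress, so the genes of both responses were read beside them. Of 9 tested NRF2 antioxidant genes 0 passed and 1 had an unadjusted p under 0.05 by limma, against 1.85% and 16.5% of all entries. Gclm, the modifier subunit of glutathione synthesis, stood at 0.21 (limma adjusted p = 0.15), Hmox1, the heme oxygenase gene, at 0.09 (0.461) and Srxn1 at 0.10 (0.5). All 3 were highest in corneaGRKO replicate 4, at 9.92, 6.96 and 10.31. Without that library Gclm stood at 0.14, Hmox1 at 0.03 and Srxn1 at 0.02. Of 8 tested heat shock genes 0 passed and 1 had an unadjusted p under 0.05 by limma, against the same shares of all entries. Hspb1, a small heat shock protein gene, stood at -0.31 (SE 0.113, limma adjusted p = 0.202) and was lowest in corneaGRKO replicate 4 (11.92). It passed with the replicate block (0.0143), with library weights (0.0137) and without corneaGRKO replicate 1 (0.0449). Bag3 stood at -0.08 (0.367), and at -0.05 without GRflox replicate 4. Hsp90aa1 stood at 0.05 (0.642) and ran from 0.02 without GRflox replicate 3 to 0.10 without GRflox replicate 4.

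Among 12 tested glucocorticoid-induced genes 1 passed as lower and 0 as higher, against 0.52% and 1.33% of all entries, and the median difference was -0.02. At an unadjusted p under 0.05 by limma 4 were lower and 2 higher, against 6.86% and 9.69% of all entries. Among these, Per1, a clock gene, stood at -0.43 (limma adjusted p = 0.0515) with groups that did not overlap, and Fkbp5, a co-chaperone of the receptor, at -0.39 (0.105), both singled out after their values were seen. The 2 higher were Dusp1 at 0.29 (limma adjusted p = 0.207) and Errfi1 at 0.11 (0.223), singled out in the same way. Of the 12 tested genes, 6 stood above 0 and 6 below. Tsc22d3, which encodes the glucocorticoid-induced protein GILZ, read 10.71, 10.61, 11.003 and 10.65 in corneaGRKO replicates 1, 3, 4 and 5, against 11.23, 11.10, 11.20 and 11.33 in the matching GRflox replicates. Within corneaGRKO it was highest in replicate 4, the library where Mt1 and Mt2 were lowest. Its difference was -0.47 (SE 0.0823, limma adjusted p = 0.0217), beside -0.20 for Mt2 and -0.13 for Mt1. The call of Tsc22d3 was lost without corneaGRKO replicate 3 (limma adjusted p = 0.078), corneaGRKO replicate 5 (0.0611), GRflox replicate 1 (0.0731) or GRflox replicate 5 (0.0835).

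**Figure D5:**
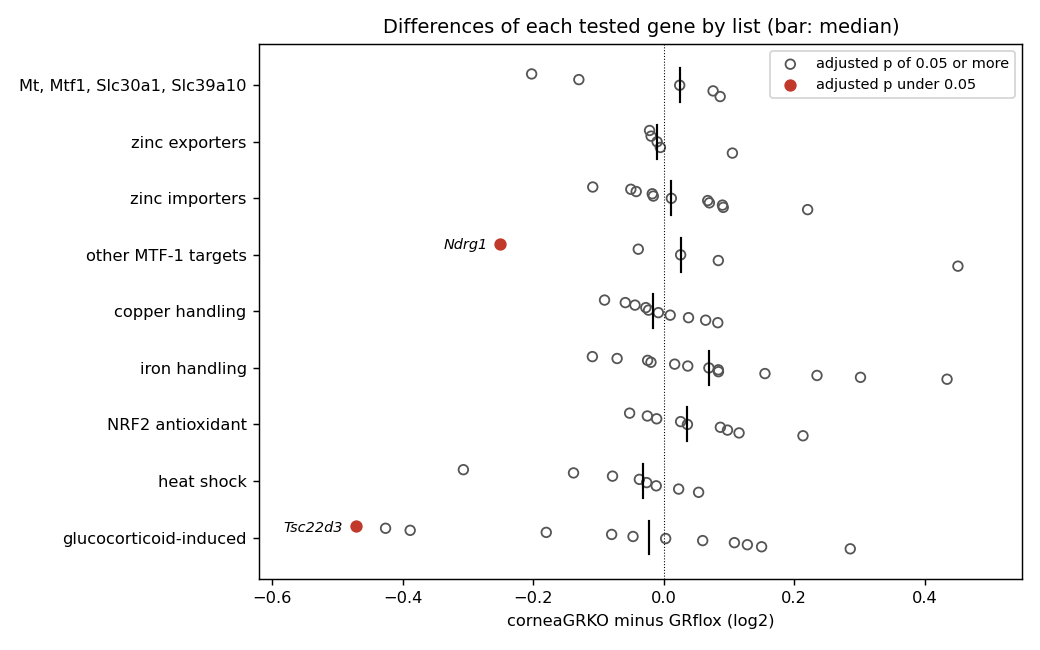
Difference of corneaGRKO minus GRflox (log2, horizontal axis) of every tested gene in the 5 metallothionein and zinc response genes and in 8 related lists; filled points passed a limma adjusted p of 0.05 and vertical bars are list medians. Ndrg1 and Tsc22d3 are the filled points, and the list medians lie between -0.03 and 0.07.

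The genes whose values most resembled those of the metallothioneins over the 8 libraries were sought among all tested entries with a gene name. For Mt2 the closest were Lynx1, Zfp865, Dapk1, Ap2b1 and Srcin1, with Pearson r from 0.982 to 0.987. For Mt1 they were Mfsd7a, Llgl2, Ccbl1, Ano10 and D17Wsu92e, with r from 0.963 to 0.972. Among all tested entries, unnamed gene models included, Mt1 itself ranked 191 by likeness to Mt2, and Mt2 ranked 104 by likeness to Mt1. When the group means were taken out first, Atox1, which encodes a copper chaperone and is 1 of the 10 tested copper genes, came second for Mt1 (r = 0.965), after Mfsd7a (0.985) and before Begain, Oasl1 and Pi4ka. In the same measure Rfx1, Dapk1, Ngef, Lynx1 and Srcin1 were closest to Mt2 (r from 0.981 to 0.988). These values were picked as the highest of all tested entries over 8 libraries that share their scaling, and they describe likeness only.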

How the data were processed

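Bowtie2, HTSeq and DESeq2 were used upstream, per the submitters' processing notes, and their versions are not given in the sources used here. Those notes and the series design name mm9, whereas the labels' extraction protocol names mm10, so coordinates are printed only with sequences, on the build of their own annotation. The authors deposited log2 normalized values, whose transformation is not stated. Reads were 75 nt pairs, per the labels, and the depth of each library is unknown, so no counting error is given. Per-sample columns outside the 8 libraries numbered 0.

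The 13269 entries with a mean of at least 5 were fitted with limma 3.58.1 in R 4.3.3, with a trend of variance on mean and a single term for genotype. Tests were two-sided, and Benjamini-Hochberg adjustment ran over every entry fitted. Differences are corneaGRKO minus GRflox on the deposited log2 scale. Replicates are pools of corneas, and the p-values reflect variation among those pools. The genes and lists were chosen with earlier results of these data known. All 7 genes are named, along with Nr3c1 and, from each list, the genes past the threshold or, with none, the 3 with the smallest p. The genes flanking the cluster, Csrp1, Per1, Fkbp5, Dusp1, Errfi1, Kera, Col5a1, Krt14, Agr2 and Muc5ac were added after values were seen. On simulated data for corneaGRKO minus GRflox, built on these 13269 entries, the fit recovered 59.6% of genes changed by 0.25, 97.2% of those changed by 0.5 and 100% of those changed by 1, while 7.41% of calls fell on genes left unchanged. The simulated noise was normal, independent between genes and of the same SD in both groups. A library that stands apart in many genes, such as corneaGRKO replicate 4, was not simulated, so these rates may overstate recovery in the real data. No libraries were duplicates (smallest median absolute difference 0.0427). Exon lengths came from GENCODE and covered 95.2% of tested entries. Exact permutation tests enumerated all 70 assignments of the libraries or all 40320 pairings, the correlations in Python 3.11.15. The 18 alternatives were the replicate block, 2 other filters, quantile normalization, median centring, a pseudocount of 16, no trend, robust moderation, library weights, each library left out, and corneaGRKO replicates 1 and 4 left out together.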

Additional observations from a re-analysis of the deposited data

Results flagged for a closer look

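In 60 groups of 4 libraries, over the named genes and the Mt2 minus Mt1 ratio, 5 held a library far from the other 3 by Dixon's criterion at the 95% level, which chance gives in about 5% of groups. Of these, 4 were corneaGRKO replicate 4. Mt2 was 11.80 there, with the nearest corneaGRKO library at 12.15, and the Mt2 minus Mt1 ratio was 1.28, with the nearest at 1.41. Gclm was 9.92 there, with the nearest at 9.63, and Hmox1 was 6.96, with the nearest at 6.74. Slc30a4 was 10.17 in GRflox replicate 4, with the nearest GRflox library at 10.03.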

How the results depend on the processing

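The count of 0 among the 5 tested metallothionein and zinc response genes was 0 under all 18 alternatives, and each of the 5 kept the sign of its difference. Adjusted p for Mt2 ran from 0.0772 (library weights) to 0.417 and for Mt1 from 0.0719 to 0.641. The count over all genes, 245, was 663 under the replicate block, 1980 under library weights, and 68 (without GRflox replicate 5) to 574 (without corneaGRKO replicate 1) when single libraries were left out; it also moved by over 1.5 times without corneaGRKO replicate 3 (83) or 5 (137) and GRflox replicate 1 (95) or 3 (114). For the other zinc transporters the count was 1 with the replicate block (Slc39a6) and 2 with library weights (Slc39a6 and Slc39a3). The replicate numbers paired the libraries only in part. Same-numbered deviations correlated at 0.514, -0.284, 0.259 and 0.0611 for numbers 1, 3, 4 and 5. Of the 4 corneaGRKO libraries, 2 (replicates 1 and 4) were closest to their own number. The labels do not name a batch. No call among the 5 changed under the block (adjusted p = 0.11 for Mt2 and 0.151 for Mt1). With single libraries left out, the Mt2 minus Mt1 difference ran from -0.11 (without GRflox replicate 3, exact permutation p = 0.0286) to -0.0374 (without corneaGRKO replicate 4), and it was -0.0351 without corneaGRKO replicates 1 and 4 (p = 0.667, exact permutation). That p of 0.0286 is the smallest possible with 1 library left out, and GRflox replicate 3 was the library through which the groups overlapped. Slc30a9 turned to 0.00823 with library weights and ran from -0.0421 to 9.47e-05 with single libraries left out, highest without GRflox replicate 4, and Slc30a6 ran from -0.0516 to 0.0215, highest without GRflox replicate 1; the cause was not tested. Other named genes that gained or lost their call are given in the report, apart from Slc11a2 (adjusted p = 0.0187), Cp (0.0181), Gclm (0.0373) and Csrp1 (0.0333), which passed with library weights, and Csrp1 (0.04) with the replicate block. The median difference of all genes was -0.00867 as deposited, -0.0144 after quantile normalization, -0.0037 after median centring and -0.00807 with the pseudocount. The exact depth per library is unknown, and weak genes such as Mt3 and Mt4 cannot be compared at these values.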
